A study of Homo sapiens with 68 samples.

Results

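A673 cells exposed for 24 h to puromycin at 0.18 µM, which is 2 times its EC50, were profiled on 3 arrays and set against 6 arrays of cells given DMSO vehicle for 24 h. These 9 arrays were chosen by their labels for compound, dose and time, out of 68 arrays in all. A673 is an established Ewing sarcoma line that carries the EWS/FLI fusion, and this single line underlies every group here. The study profiled puromycin and doxorubicin as further cytotoxic compounds beside ARA-C, the drug whose EWS/FLI-related signature it followed, and took the EC50 from a viability assay. The groups compared below were puromycin 0.18 µM for 24 h (3 arrays), puromycin 0.09 µM, or 1 times EC50, for 24 h (3 arrays), doxorubicin 119.76 nM, or 2 times EC50, for 24 h (3 arrays), puromycin 0.18 µM for 3 days (3 arrays), vehicle for 3 days (5 arrays) and vehicle for 24 h (6 arrays). The spread in the 24 h tests was also estimated from ARA-C at 1 and 2 times EC50 and doxorubicin at 1 times EC50 for 24 h (3 arrays each). Tests with day 3 drew on the remaining groups of that day as well. The labels name the samples biological replicates without saying how the cultures were separated, so the p-values measure the spread between these samples. Signals are the array software's summary of each probe set in arbitrary units, and every value under 10 was set to 10 before log2 was taken.

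Puromycin is an aminonucleoside that resembles the end of an aminoacyl-tRNA. The ribosome joins it to the growing chain, which is then released unfinished, and for this reason the drug is used to kill cells that lack a resistance gene. Truncated chains are taken up by chaperones and the proteasome, and blocked translation lowers short-lived proteins first. Several transcription factor systems that respond to such conditions have well-known target genes on this array: heat shock factor and the cytosolic chaperones, ATF4 and the amino acid response, p53 and CDKN1A, and the actin-sensing pair of serum response factor (SRF) with its co-activators and TEAD with YAP, whose targets include cytoskeletal and matricellular genes.

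The label of the cell type fitted its markers. Of 10 measured markers of Ewing sarcoma, 1 had a mean signal under 100, and their summed signal was 39870 to 42620 on the puromycin arrays and 39930 to 46130 on the vehicle arrays. One puromycin array stood apart in RNA quality. The log2 ratio of the 3′ to the 5′ control probe set of ACTB was 3.17, 1.05 and 1.17 on puromycin replicates 1, 2 and 3, against 0.51 to 1.10 on the 6 vehicle arrays. That of GAPDH was 1.13, 0.34 and 0.24 with puromycin and 0.10 to 0.39 with vehicle. Replicate 1 was above every vehicle array for both genes, whereas replicates 2 and 3 were near the top of the vehicle range for ACTB and inside it for GAPDH. The mean difference for ACTB was 0.98 (exact permutation test, two-sided, p = 0.036, adjusted over both genes 0.071, smallest possible 0.012), and it was 0.29 without replicate 1. For GAPDH it was 0.33 (p = 0.095 by the same exact test). Replicate 1 also had the lowest median correlation with the other 24 h arrays among the 3, at 0.960 against 0.976 and 0.974. The puromycin arrays lay in plate row B, vehicle replicates 1 to 3 in row A and vehicle replicates 4 to 6 in row G, so the row of puromycin held no vehicle. Between the vehicle rows, 47 of 22215 probe sets (0.212%) differed at an adjusted p under 0.05. The part of the ratio and of the plate row in the results below was not tested, but each gene's call against vehicle was repeated without each array. Unless its paragraph says otherwise, a gene called changed in the comparison with vehicle kept its call when any of the 9 arrays was left out.

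**Figure D1:**
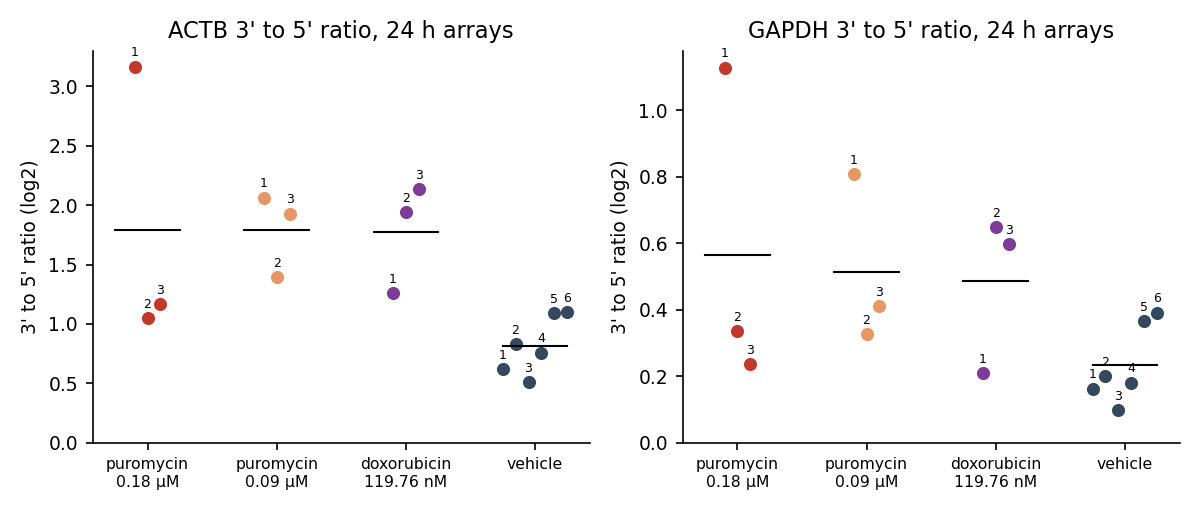
Log2 ratio of the 3′ to the 5′ control probe set of ACTB and GAPDH on each array of puromycin 0.18 µM, puromycin 0.09 µM, doxorubicin 119.76 nM and vehicle at 24 h. Points carry the replicate number and lines are group means. Puromycin 0.18 µM replicate 1 is the highest point in both panels, at 3.17 for ACTB and 1.13 for GAPDH.

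A set of 5 start-site regions are shown because each belongs to a gene called changed below and holds a motif of its group. They were picked for these matches and say nothing of the other genes. They run from 250 bases before to 50 bases after the start site, in RefSeq on GRCh38.p14, and were read on the strand of the gene. Capitals mark the letters of the motif that was searched on both strands: GGAATG, the core bound by TEAD factors, in CCN2 (chr6:131951323-131951622, minus strand, 3 matches) and ANKRD1 (chr10:90921038-90921337, minus strand, 2 matches), the CArG box bound by SRF in TPM4 (chr19:16067288-16067587, plus strand, 1 match) and CNN2 (chr19:1026358-1026657, plus strand, 1 match), and the heat shock element GAANNTTC or TTCNNGAA in HSPA1A (chr6:31815293-31815592, plus strand, 1 match).
CCN2: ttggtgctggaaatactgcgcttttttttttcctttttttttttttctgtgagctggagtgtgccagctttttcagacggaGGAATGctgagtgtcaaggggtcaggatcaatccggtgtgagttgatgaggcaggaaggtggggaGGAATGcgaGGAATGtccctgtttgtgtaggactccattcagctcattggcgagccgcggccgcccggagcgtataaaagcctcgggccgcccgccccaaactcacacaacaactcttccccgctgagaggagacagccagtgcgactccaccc
ANKRD1: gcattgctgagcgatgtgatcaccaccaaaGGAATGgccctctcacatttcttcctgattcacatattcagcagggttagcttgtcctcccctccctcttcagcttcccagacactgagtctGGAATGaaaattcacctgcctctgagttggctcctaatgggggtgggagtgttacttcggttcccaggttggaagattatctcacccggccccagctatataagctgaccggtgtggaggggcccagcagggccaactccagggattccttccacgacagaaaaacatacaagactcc
TPM4: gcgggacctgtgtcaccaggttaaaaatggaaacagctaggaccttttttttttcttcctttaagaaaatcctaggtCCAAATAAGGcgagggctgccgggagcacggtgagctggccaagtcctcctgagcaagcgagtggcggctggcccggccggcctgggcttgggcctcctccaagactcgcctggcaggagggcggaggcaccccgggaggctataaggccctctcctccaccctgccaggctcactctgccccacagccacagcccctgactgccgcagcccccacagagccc
CNN2: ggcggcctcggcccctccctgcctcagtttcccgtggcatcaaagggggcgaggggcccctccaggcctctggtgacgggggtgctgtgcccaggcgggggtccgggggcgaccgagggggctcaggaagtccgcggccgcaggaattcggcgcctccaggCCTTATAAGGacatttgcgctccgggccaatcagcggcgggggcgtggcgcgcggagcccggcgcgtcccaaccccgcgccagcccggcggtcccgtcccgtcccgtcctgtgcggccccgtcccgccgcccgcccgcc
HSPA1A: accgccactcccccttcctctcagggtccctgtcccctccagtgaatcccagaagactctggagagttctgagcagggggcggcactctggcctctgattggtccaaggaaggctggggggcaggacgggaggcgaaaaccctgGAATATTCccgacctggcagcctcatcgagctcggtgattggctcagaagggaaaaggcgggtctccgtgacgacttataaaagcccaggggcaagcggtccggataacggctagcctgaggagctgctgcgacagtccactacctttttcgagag
These are matches of letters and not measured sites. Over all 27305 RefSeq regions of this length, GGAATG was found in 3836, the CArG box in 1.29% of them and the heat shock element in 13.7%. Among the genes counted below, the CArG box was found in 5 of 21 SRF targets with a region, of which 2 were among the 13 called lower, and the heat shock element was found in 13 of 30 chaperone genes, of which 3 were among the 7 called higher. Of the 15 largest falls, 10 had a region and 3 of these held GGAATG (THBS1, ANKRD1 and RGS5). Of the 15 largest rises, 12 had a region and 3 held it (P4HA2, CCK and KLHL5). None of the 6 ATF4 targets called higher held TGATGNAA, the element that ATF4 binds, which was found in 6 of the 29 members of that list with a region and in 3.67% of all regions.

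At 24 h the clearest change was a fall of SRF targets of the cytoskeleton and of matrix genes. THBS1, ANKRD1, TAGLN, ZYX, TPM4, CCN1, CCN2 and COL1A1 all lay lower on each puromycin array than on each vehicle array, as did 6.61% of all probe sets, while 5.58% lay higher on each. P4HA2, AMPD1, APOH and HERC5 were among the 15 largest rises, and HSPA1A, HSPA1B, DDIT3, STC2 and GABARAPL1 rose among the stress genes. In all, 809 probe sets were higher (3.64% of 22215 tested) and 904 lower (4.07%) than with vehicle at an adjusted p under 0.05 by limma with Benjamini-Hochberg adjustment. The counts depended on single arrays: without puromycin replicate 3 there were 424 higher, and without replicate 1 there were 548 lower. Against the vehicle arrays of row A alone 405 were higher and 829 lower, and with the ACTB ratio as a term in the fit 1961 were higher and 828 lower. The median log2 change of all probe sets was -0.0176. The split depended on the scaling: when every array was shifted to 1 common median, 1035 were higher and 713 lower, so that the share of higher calls was 59.2% in place of 47.2%, and the median moved to 0.0817. The lists described here are counted against these background shares, and their members were not tested as a set. Each listed gene is taken by its brightest probe set, while the background holds all probe sets, dim ones included. The shares are therefore not at like brightness, which favours a higher share in a list. With the dimmest 40% of probe sets dropped from the fit, 974 were higher and 1213 lower.

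The largest fall was that of THBS1 (chr15:39581079-39599466, GRCh38.p14), which encodes thrombospondin 1, a secreted matricellular protein. Its signal was 8.43, 9.65 and 27.9 on the 3 puromycin arrays, against a lowest of 177, a median of 199 and a highest of 241 on the 6 vehicle arrays. The groups were far apart, with an estimated fall of 14.5-fold on this probe set (log2 change -3.86 ± 0.51, SE, adjusted p = 4.9e-05). Since 2 of the puromycin values lay under the floor of 10, that estimate depends on the floor. A further probe set of the gene, with 3.43, 91.0 and 88.9 against 235, 285 and 319, was lower too (log2 change -2.69 ± 0.43, adjusted p = 0.00040), and replicate 1 was the lowest by a wide margin. ANKRD1 (chr10:90912096-90921087) encodes a muscle ankyrin repeat protein and is a known target of YAP and TEAD. It gave 15.01, 45.2 and 32.7 with puromycin and 165, 188 and 249 with vehicle, with no overlap, which is a fall of 6.89-fold (log2 change -2.78 ± 0.29, adjusted p = 4.0e-06). Without replicate 1 its log2 change was -2.33.

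Other classical YAP and TEAD targets, the matricellular genes CCN1 and CCN2, fell less. CCN2 read 492, 1928 and 1580 on the puromycin arrays and 2879, 3123 and 4281 on the vehicle arrays. All puromycin values lay below the vehicle range, but replicate 1 was far below its fellows, and the log2 change of -1.51 ± 0.27 (adjusted p = 0.0012) was -0.90 without it. CCN1, at 296, 672.6 and 714 with puromycin against 1126, 1337 and 1608 with vehicle, showed the same order of arrays (log2 change -1.36 ± 0.21, adjusted p = 0.00029, and -0.95 without replicate 1). AXL, a receptor tyrosine kinase, gave 10.2, 64.5 and 31.4 against 113, 121 and 140, and again did not overlap (log2 change -2.16 ± 0.39, adjusted p = 0.0013).

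**Figure D2:**
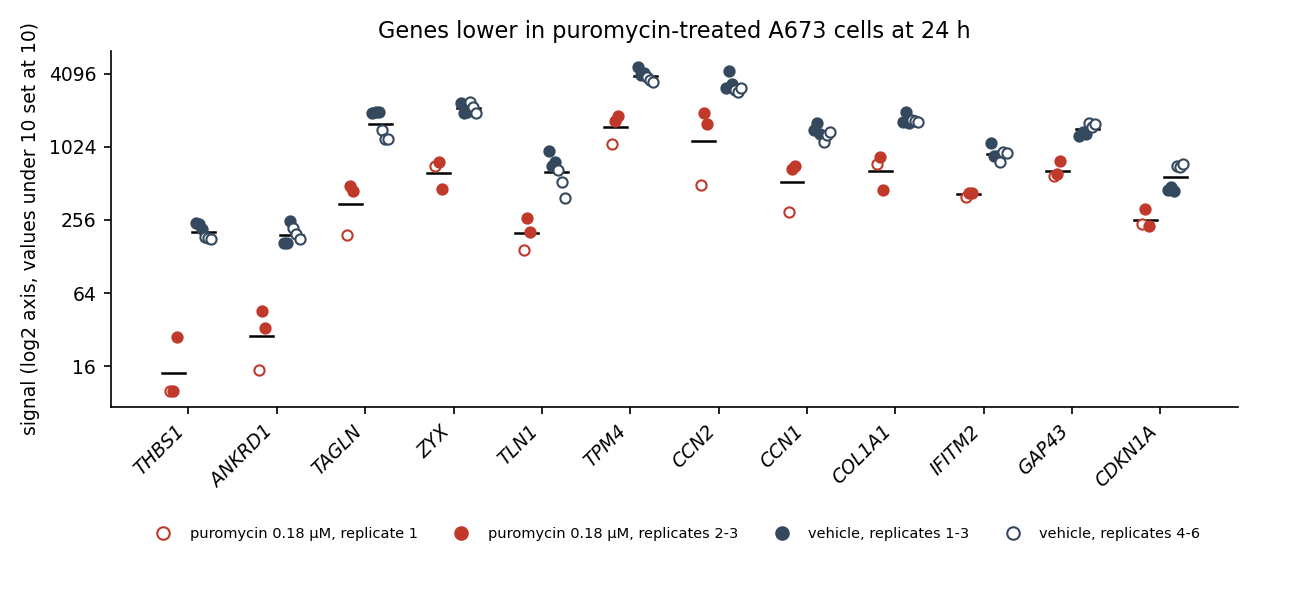
Signal (log2 axis, arbitrary units) of 12 genes that fell, on each array of puromycin 0.18 µM (left) and vehicle (right) at 24 h. Open points are puromycin replicate 1 and vehicle replicates 4 to 6, and lines are means of log2 signal. In every panel all 3 puromycin arrays lie below all 6 vehicle arrays.

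Of 24 measured targets of SRF in the contractile and cytoskeletal apparatus, 15 were lower and none was higher. This is 62.5% called, against 7.71% of all probe sets, which include many dimmer ones. The median log2 change of the list was -0.56. TAGLN (chr11:117199294-117207465) encodes transgelin, an actin-binding protein of smooth muscle. Its signal was 193, 484 and 443 with puromycin, against 1188, 1669 and 1992 with vehicle. Every puromycin array was far under the lowest vehicle array (4.55-fold lower, log2 change -2.19 ± 0.29, adjusted p = 6.2e-05). ZYX (chr7:143381345-143391111), which encodes the focal adhesion protein zyxin, gave 714, 759 and 457 against 1935, 2083 and 2374, again without overlap (3.37-fold lower, log2 change -1.75 ± 0.18, adjusted p = 4.0e-06). Here replicate 1 was not the lowest, and the change was -1.85 without it. TLN1 (chr9:35696948-35732195), encoding talin 1, which links integrins to actin, gave 146, 267 and 204 against 390, 685 and 942 (log2 change -1.68 ± 0.28, adjusted p = 0.00067).

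Some further members are given although they were chosen after their values were seen. TPM4 (chr19:16067538-16103002), a tropomyosin that covers actin filaments, read 1087, 1674 and 1829 with puromycin and 3474, 3900 and 4642 with vehicle (log2 change -1.40 ± 0.22, adjusted p = 0.00035). The groups did not overlap. TPM1, a further tropomyosin, had 3976, 4498 and 5230 against 6669, 7110 and 8381 (log2 change -0.67 ± 0.09, adjusted p = 9.6e-05). Calponin 2 (CNN2) had 562, 740 and 678 against 953, 1088 and 1167 (log2 change -0.70 ± 0.14, adjusted p = 0.0031), and caldesmon (CALD1) had a log2 change of -0.43 ± 0.08 (adjusted p = 0.0019). VCL, CNN3 and MYL9 were called as well, but VCL lost the call in 4 and CNN3 in 7 of the 9 cases, among them without puromycin replicate 1 (log2 change -0.18 and -0.21 then), and MYL9 lost it without replicate 3 (adjusted p = 0.10). The actins themselves did not pass: ACTB gave 33060, 20980 and 18760 against 20950, 23930 and 28150 (log2 change -0.04 ± 0.15), and ACTG1 had a log2 change of -0.26 ± 0.13 (adjusted p = 0.27). SRF read 494, 764 and 683 against 646, 954 and 1108 (log2 change -0.52 ± 0.18, adjusted p = 0.094). Without replicate 1, the list had 12 members lower and none higher, with a median of -0.39, and against the vehicle arrays of row A alone it had 14 lower and none higher.

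Among the remaining large falls, PXN encodes the focal adhesion protein paxillin, MYOF the membrane repair protein myoferlin, SMAD3 a mediator of TGF-β signals and RGS5 a regulator of G protein signals. RGS5 gave 79.2, 238 and 245 against 544, 770 and 1132 (log2 change -2.23 ± 0.37, adjusted p = 0.00054), and ARHGDIA gave 49.3, 50.01 and 34.5 against 150, 204 and 310 (log2 change -2.21 ± 0.39, adjusted p = 0.00094). Neither pair of ranges overlapped. CLEC1A, a C-type lectin, had 36.2, 28.5 and 44.2 against 118, 141 and 226 (log2 change -2.10 ± 0.26, adjusted p = 2.9e-05). PXN, MYOF, SMAD3, GLIPR1 and AP1M2 fell by log2 changes of -2.17 to -2.67, with puromycin values near or under the floor on at least 1 array. Of the 15 largest falls, whose log2 changes spanned -2.09 to -3.86, 13 kept the call with any single array left out, 13 did so against the vehicle arrays of row A alone and 14 without puromycin replicate 1. TARP lost it without replicate 1 (adjusted p = 0.13) and BGN, a small matrix proteoglycan, without replicate 3 (adjusted p = 0.19).

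Of 50 measured collagen and matrix genes, 15 were lower and 3 higher, with a median log2 change of -0.39. COL1A1 (chr17:50184101-50201631), the α1 chain of type I collagen, read 734, 841 and 447 with puromycin against 1598, 1659 and 1977 with vehicle. The highest puromycin array was under the lowest vehicle array (2.61-fold lower, log2 change -1.38 ± 0.15, adjusted p = 4.0e-06). These values are of its brightest probe set. Another probe set of COL1A1 fell more and was among the 15 largest falls, whose log2 changes were -2.09 or lower. LOX and LOXL2, which cross-link collagen and elastin, had log2 changes of -1.94 ± 0.39 (adjusted p = 0.0029) and -1.28 ± 0.23 (adjusted p = 0.00099). For LOX, replicate 1 read 17.1 beside 124 and 103, against 194 to 280 with vehicle, and the change was -1.03 without it. TNC, encoding tenascin C, had 958, 1884 and 1538 against 2502, 2819 and 3228 (log2 change -1.005 ± 0.15, adjusted p = 0.00016), and COL5A1, chosen after its values were seen, had 606, 693 and 485 against 849, 903 and 919 (log2 change -0.60 ± 0.11, adjusted p = 0.0014). COL1A2 was lower by less (log2 change -0.41 ± 0.10, adjusted p = 0.013, and 0.067 without replicate 1). FN1, the fibronectin gene, gave 15940, 14840 and 14050 against 14050, 16050 and 18550 and overlapped (log2 change -0.11 ± 0.10).

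The 3 matrix genes that rose were P4HA2, PLOD2 and P4HA1, subunits of prolyl hydroxylase and lysyl hydroxylase. P4HA2 (chr5:132190147-132227853) had 401, 470 and 482 with puromycin, against 81.5, 123 and 157 with vehicle. It was among the largest rises of all and its groups were widely separated (3.95-fold higher, log2 change 1.98 ± 0.20, adjusted p = 4.0e-06). PLOD2 gave 2522, 3091 and 3033 against 1065, 1559 and 1836 (log2 change 0.97 ± 0.14, adjusted p = 0.00020). P4HA1 gave 1773, 2338 and 2538 against 1432, 1645 and 1747, just above the vehicle range on replicate 1 (log2 change 0.43 ± 0.10, adjusted p = 0.012), and it lost the call without puromycin replicate 2 or 3 (adjusted p up to 0.11).

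**Figure D3:**
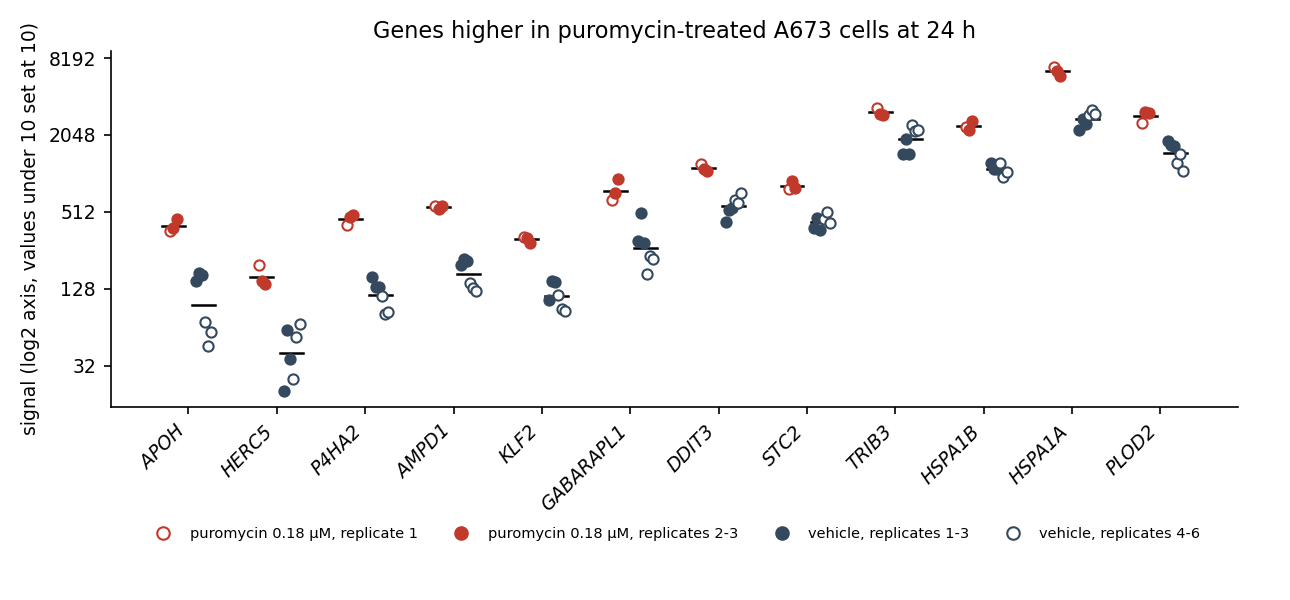
Signal (log2 axis, arbitrary units) of 12 genes that rose, on each array of puromycin 0.18 µM (left) and vehicle (right) at 24 h. Open points are puromycin replicate 1 and vehicle replicates 4 to 6, and lines are means of log2 signal. P4HA2, AMPD1 and HSPA1B show the widest gaps relative to the spread within a group, while HERC5 and APOH vary most among the vehicle arrays.

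The 15 largest rises spanned log2 changes of 1.74 to 2.09 and came mainly from dim genes: 9 of them had a vehicle median under 30, and none of the 15 largest falls did. AMPD1 (chr1:114673098-114695546), the AMP deaminase of skeletal muscle, was bright enough to be read well on all arrays. It gave 566, 542 and 574 with puromycin and 124, 170 and 221 with vehicle, a tight group above a separate one (3.37-fold higher, log2 change 1.75 ± 0.20, adjusted p = 8.5e-06). APOH, a plasma glycoprotein that binds phospholipid, had 361, 380 and 454 against 45.3, 109 and 169 (log2 change 2.05 ± 0.35, adjusted p = 0.00068). HERC5, the ligase that joins the ubiquitin-like ISG15 to proteins, had 195, 148 and 139 against 20.3, 44.9 and 67.5 (log2 change 1.99 ± 0.36, adjusted p = 0.0013). KLHL5, encoding a Kelch-like protein, and LAMB3, the β3 chain of laminin, rose by log2 changes of 1.80 ± 0.36 and 1.74 ± 0.34, both without overlap. DHRS2, a short-chain dehydrogenase, gave 43.5, 97.0 and 81.8 against 7.07, 19.7 and 32.8 (log2 change 1.99 ± 0.44, adjusted p = 0.0055), and was not called against the vehicle arrays of row A alone (adjusted p = 0.055).

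The other 8 of these rises, SLITRK3, SFTPB, PLAAT2, CCK, SEMA4G, BBS9, N4BP2L2-IT2 and PRRG4, each lost the call when at least 1 array was left out. CCK, the gene of the gut and brain peptide cholecystokinin, had 114 on replicate 1 beside 42.9 and 31.6, against 1.40 to 29.1 with vehicle, and its adjusted p without that replicate was 0.10. SLITRK3, a neuronal membrane protein, had 85.9, 96.2 and 113 against 3.63, 21.3 and 72.7, and lost the call without replicate 3 (adjusted p = 0.081). Of the 15, 7 stayed called against row A vehicle alone, compared with 13 of the 15 falls.

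Among chaperones and heat shock genes, 7 of 34 measured members were higher and none lower, while the median log2 change of 0.01 stayed near that of all probe sets. Both inducible HSP70 genes, which lie side by side on chromosome 6 and are near-identical so that their probe sets may share signal, rose. HSPA1B gave 2350, 2223 and 2633 with puromycin, against 953, 1111 and 1239 with vehicle. The groups were well apart (2.15-fold higher, log2 change 1.11 ± 0.12, adjusted p = 4.0e-06). HSPA1A, whose start-site region is printed above, gave 6977, 6521 and 5941 against 2243, 2838 and 3199 on 1 probe set (2.36-fold higher, log2 change 1.24 ± 0.17, adjusted p = 7.0e-05) and 13710, 9868 and 9700 against 5445, 6136 and 7078 on another (log2 change 0.82 ± 0.15, adjusted p = 0.0011). DNAJB4, an HSP40 co-chaperone, had 570, 1224 and 1188 against 317, 502 and 569, with replicate 1 only just above the vehicle range (log2 change 1.02 ± 0.23, adjusted p = 0.0080). It lost the call without replicate 2 or 3 (adjusted p up to 0.071), and HSPA4L, an HSP110 family member called at an adjusted p of 0.045, lost it in 7 of the 9 cases. The constitutive HSPA8 did not move beyond the spread (25130, 17580 and 18090 against 15780, 18730 and 22650), and DNAJB1 gave 2971, 4148 and 3951 against 2615, 2771 and 2807, above the vehicle range but not past the test (log2 change 0.41 ± 0.16, adjusted p = 0.12). The count of 7 was 2 without puromycin replicate 3, 4 without replicate 2, 4 without vehicle replicate 1, and 3 against row A vehicle alone, and with the ACTB ratio as a term 8 were higher and 5 lower.

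ATF4 and the amino acid response rose in part. Of 35 measured members, 6 were higher and 2 lower, with a median log2 change of 0.15. DDIT3 (chr12:57516588-57520517), which encodes the stress factor CHOP, read 1218, 1119 and 1065 with puromycin, against 425, 575 and 717 with vehicle. This was a clean separation (2.00-fold higher, log2 change 1.00 ± 0.13, adjusted p = 4.0e-05). STC2, a secreted glycoprotein, gave 772, 901 and 794 against 369, 434 and 513 (log2 change 0.93 ± 0.13, adjusted p = 7.9e-05), and TRIB3, a pseudokinase that restrains ATF4, gave 3355, 3013 and 2923 against 1442, 2050 and 2442 (log2 change 0.70 ± 0.14, adjusted p = 0.0023). CTH, the cystathionine lyase, was called (log2 change 0.67 ± 0.18, adjusted p = 0.021) but not without puromycin replicate 3 (adjusted p = 0.12). Some hallmark genes of the response did not pass. ASNS, asparagine synthetase, gave 2783, 4589 and 5101 against 2029, 3293 and 4812 (log2 change 0.32 ± 0.25), CHAC1 gave 234, 283 and 274 against 217, 298 and 387, and ATF3 gave 181, 204 and 240 against 107, 137 and 185 (log2 change 0.56 ± 0.21, adjusted p = 0.11). CBS and SLC7A11, which make cystathionine and import cystine, were the members called lower, at log2 changes of -0.64 and -0.48, and replicate 1 was far the lowest array for both (-0.34 and -0.27 without it, adjusted p = 0.37 and 0.26). CBS lost the call in 7 and SLC7A11 in 4 of the 9 cases. With the ACTB ratio as a term in the fit the list had 11 higher and none lower, and against row A vehicle alone it had 14 higher and 1 lower.

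In the endoplasmic reticulum, 3 of 29 chaperone and unfolded protein response genes were higher and none lower (11 and none with the ACTB ratio as a term). DNAJC3, the co-chaperone that inhibits PERK, had 371, 317 and 335 against 133, 170 and 217 (log2 change 1.02 ± 0.18, adjusted p = 0.0012), and WFS1, a membrane protein of the compartment, had 574, 495 and 423 against 190, 296 and 351 (log2 change 0.80 ± 0.18, adjusted p = 0.0064). The main chaperones were level: HSPA5 gave 9464, 10660 and 10230 against 9402, 10870 and 11470 (log2 change -0.08 ± 0.08) and HSP90B1 had a log2 change of -0.01 ± 0.08. Of 33 lysosome and autophagy genes, 2 were higher and none lower. GABARAPL1, which coats autophagosomes, had 634, 719 and 920 against 169, 262 and 498, where the highest vehicle array came near the puromycin group (log2 change 1.48 ± 0.23, adjusted p = 0.00023). A probe set annotated to its copy GABARAPL3, seen to be high after the fact and open to shared signal, had 5633, 4126 and 4193 against 1312, 1466 and 1590 (log2 change 1.65 ± 0.16, adjusted p = 3.4e-06). The lysosomal protease CTSB had a log2 change of 0.68 ± 0.13 (adjusted p = 0.0022).

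**Figure D4:**
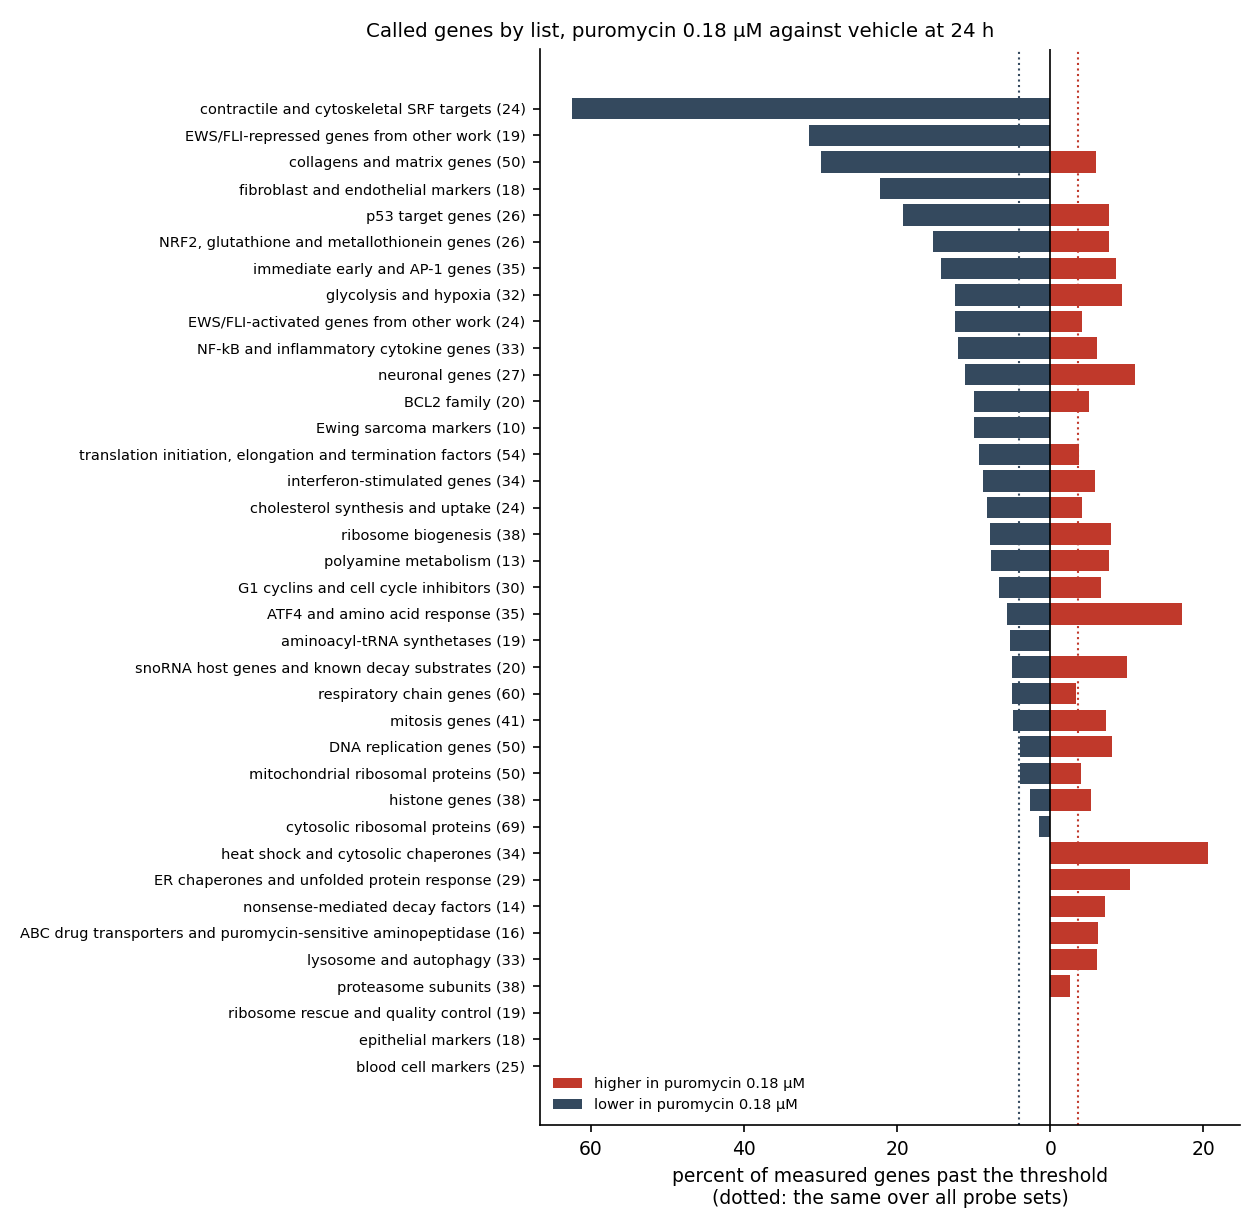
Percent of the measured members of each gene list called lower and higher with puromycin 0.18 µM against vehicle at 24 h (limma, adjusted p under 0.05). Dotted lines give the background of all 22215 probe sets, dim ones included, 4.07% lower and 3.64% higher, while each listed gene is taken by its brightest probe set. The SRF targets have the highest share lower, 15 of 24, and the chaperones reach 7 of 34 higher.

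Among genes of the translation machinery that puromycin acts on, the share called was 1.45% for cytosolic ribosomal proteins and 5.26% for aminoacyl-tRNA synthetases. Both lie under the 7.71% of all probe sets, which include many dimmer ones, whereas the share of translation factors lay above it. Of 69 cytosolic ribosomal protein genes, 1 was lower and none higher (RPL35A, log2 change -0.22 ± 0.06, adjusted p = 0.018, and 0.050 without puromycin replicate 1). This count depended on the ACTB ratio: with that ratio as a term in the fit 47 of the 69 were lower and none higher, with a median log2 change of -0.29, in place of -0.05. Without puromycin replicate 1 none was called, and the median was -0.21 with 64 of 69 below 0. None of 19 ribosome rescue and quality control genes passed in either direction, 1 of 38 proteasome genes was higher, and 1 of 19 aminoacyl-tRNA synthetase genes was lower. That gene, VARS1, the valyl-tRNA synthetase, had 1010, 936 and 672 against 1280, 1475 and 1725 (log2 change -0.81 ± 0.15, adjusted p = 0.0014). Of 54 translation factors, 2 were higher and 5 lower. The factor EIF5A, which frees ribosomes stalled on proline runs, gave 1009, 1717 and 1926 with puromycin, against 3074, 3483 and 3763 with vehicle. Here the groups were widely apart (2.29-fold lower, log2 change -1.19 ± 0.21, adjusted p = 0.00096), and the change was -0.91 without replicate 1. EIF3C, a subunit of the initiation factor that binds the small ribosomal subunit, gave 7797, 9464 and 8857 against 11340, 12330 and 12890 (log2 change -0.50 ± 0.09, adjusted p = 0.0012). EIF2S3, encoding the γ subunit of eIF2, had 394 on replicate 1 beside 2061 and 1812, against 2335 to 4170, and its change of -1.36 was -0.59 without that array (adjusted p = 0.35). It lost the call in 4 of the 9 cases. PDCD4, an inhibitor of the helicase eIF4A noticed after its values were seen, rose (275, 500 and 455 against 128, 170 and 212, log2 change 1.27 ± 0.21, adjusted p = 0.00054).

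In ribosome biogenesis 3 of 38 genes were higher and 3 lower. GNL2, a nucleolar GTPase, gave 5581, 4734 and 5162 against 3379, 3643 and 4462 (log2 change 0.48 ± 0.10, adjusted p = 0.0040), while BOP1, a processing factor of the large subunit, gave 2808, 2487 and 2201 against 3278, 3851 and 4333 (log2 change -0.61 ± 0.12, adjusted p = 0.0017). Both pairs of groups were separate, in opposite directions. Of 20 host genes of snoRNAs and known decay substrates, 2 were higher and 1 lower, and of 14 decay factors 1 was higher. BAG1, an HSP70 co-chaperone, had the larger rise of the 2, with 2570, 1866 and 1519 against 895, 1006 and 1137 (log2 change 0.94 ± 0.17, adjusted p = 0.0011). MYC read 7130, 9733 and 9227 against 7797, 9149 and 11700 and did not differ beyond its spread (log2 change -0.12 ± 0.15).

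The cyclin-dependent kinase inhibitor CDKN1A (chr6:36676463-36687332), the best known target of p53, fell. It gave 235, 313 and 226 with puromycin, against 443, 589 and 742 with vehicle, with no overlap (2.24-fold lower, log2 change -1.17 ± 0.17, adjusted p = 0.00014). Of 26 measured p53 targets, 2 were higher and 5 lower, at a median log2 change of 0.00. AEN, an apoptosis-enhancing nuclease, was higher (1081, 1042 and 1249 against 628, 692 and 805, log2 change 0.67 ± 0.12, adjusted p = 0.00096). GDF15, a secreted stress cytokine, gave 62.2, 53.7 and 59.9 against 93.5, 132 and 194 (log2 change -1.19 ± 0.31, adjusted p = 0.020) and lost the call without puromycin replicate 2 or 3 (adjusted p up to 0.064). BAX, an effector of cell death, gave 401, 239 and 71.3 against 324, 578 and 748, with an overlap at replicate 1, and was not called without replicate 3 (adjusted p = 0.22). MDM2, the ligase that degrades p53, was level within its wide spread (log2 change -0.30 ± 0.50). Of 20 genes of the BCL2 family, which includes BAX, 1 was higher and 2 were lower.

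Among cell cycle genes a minority passed the test, in both directions. The share called ran from 7.89% (histone genes) to 13.3% (G1 cyclins and inhibitors). In each list it was above the 7.71% of all probe sets, which include many dimmer ones. Of 41 mitosis genes 3 were higher and 2 lower, of 50 DNA replication genes 4 and 2 (with the ACTB ratio as a term 10 and 0 and 13 and 2), of 30 G1 cyclins and inhibitors 2 and 2, and of 38 histone genes 2 and 1. NDC80, a kinetochore component, had 3426, 3367 and 3748 against 2335, 2494 and 2658 (log2 change 0.50 ± 0.09, adjusted p = 0.0011), GINS3, part of the replicative helicase, had 1099, 1205 and 1327 against 688, 810 and 888 (log2 change 0.60 ± 0.11, adjusted p = 0.00094), and ORC2, of the origin recognition complex, had 418, 593 and 506 against 839, 995 and 1073 (log2 change -0.96 ± 0.16, adjusted p = 0.00050). Each of these 3 separated the groups, and the changes stayed under 2-fold.

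Among 35 immediate early and AP-1 genes, 3 were higher and 5 lower. KLF2, a zinc finger factor, rose (329, 320 and 294 against 85.5, 109 and 148, log2 change 1.49 ± 0.28, adjusted p = 0.0014), as did MAFF, a small MAF factor (log2 change 0.58 ± 0.10, adjusted p = 0.0012). FOSL1, an AP-1 subunit, gave 382, 516 and 390 against 634, 734 and 808 (log2 change -0.77 ± 0.14, adjusted p = 0.0012), and the phosphatase DUSP4 was lower too (log2 change -0.79 ± 0.17, adjusted p = 0.0041). The 2 probe sets of JUN gave different answers: 1 rose (307, 380 and 561 against 198, 229 and 265, log2 change 0.83 ± 0.16, adjusted p = 0.0016) and the brighter 1 did not pass (921, 985 and 636 against 636, 691 and 905, log2 change 0.23 ± 0.17). FOS gave 192, 570 and 470 against 441, 571 and 774 (log2 change -0.62 ± 0.29, adjusted p = 0.22). Of 33 NF-κB and inflammatory genes 2 were higher and 4 lower, with the interleukin IL1A at 156, 415 and 302 against 514, 751 and 985 (log2 change -1.41 ± 0.27, adjusted p = 0.0018) and the chemokine CXCL8 at 197, 264 and 278 against 357, 602 and 855 (log2 change -1.21 ± 0.23, adjusted p = 0.0021).

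The interferon-induced membrane proteins fell while HERC5 rose. IFITM2 gave 394, 428 and 428 with puromycin, against 760, 888 and 1089 with vehicle. It was tight and fully separate (2.15-fold lower, log2 change -1.11 ± 0.13, adjusted p = 1.4e-05). IFITM3 gave 1510, 1761 and 1495 against 2358, 2666 and 3669 (log2 change -0.80 ± 0.15, adjusted p = 0.0013). Of 34 interferon-stimulated genes, 2 were called higher and 3 lower. The risers, MX1 and IFIH1, were dim, with MX1 at 38.6, 23.5 and 34.7 against 2.75 to 7.89, all under the floor, and both lost the call without replicate 1 (adjusted p = 0.067 and 0.10) as well as without replicate 3.

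In metabolism, the glycolytic enzymes PKM and HK1 were lower. The hypoxia genes moved both ways: NDRG1 and BNIP3 were higher, while ADM, whose values are given below with doxorubicin, was called lower. The call of ADM with single arrays left out is not given here. Pyruvate kinase (PKM) read 8984, 9208 and 8567 with puromycin, against 11950, 13780 and 15090 with vehicle. The gap was clear although the change was modest (1.54-fold lower, log2 change -0.62 ± 0.08, adjusted p = 4.8e-05). HK1, the first hexokinase, gave 1536, 1937 and 1651 against 2184, 3328 and 3665 (log2 change -0.83 ± 0.17, adjusted p = 0.0030). NDRG1, a hypoxia and stress gene, had 254, 341 and 278 against 138, 159 and 186 (log2 change 0.83 ± 0.17, adjusted p = 0.0033), and BNIP3, which directs mitochondria to autophagy, had 1436, 2003 and 2066 against 964, 1183 and 1343 (log2 change 0.66 ± 0.13, adjusted p = 0.0029). In all, 3 of 32 glycolysis and hypoxia genes were higher and 4 lower, 2 of 60 respiratory chain genes higher and 3 lower, and 2 of 50 mitochondrial ribosomal protein genes higher and 2 lower. Of 26 NRF2, glutathione and metallothionein genes 2 were higher and 4 lower, including the metallothioneins MT1X (1361, 1187 and 971 against 1552, 2013 and 2731, log2 change -0.79 ± 0.15, adjusted p = 0.0022) and MT2A (log2 change -0.62 ± 0.13, adjusted p = 0.0040). The polyamine enzymes SMOX, which oxidises spermine, and SRM, which makes spermidine, moved apart, at log2 changes of 0.65 ± 0.14 (adjusted p = 0.0036) and -0.60 ± 0.12 (adjusted p = 0.0034), and were the only 2 of 13 polyamine genes called. SREBF1, the lipid synthesis factor, was lower (252, 246 and 213 against 316, 470 and 586, log2 change -0.94 ± 0.18, adjusted p = 0.0019), among 1 higher and 2 lower of 24 cholesterol genes.

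Probe sets of the 2 genes that form the fusion did not differ beyond their spread. FLI1 gave 2332, 3571 and 3762 with puromycin, against 3007, 3247 and 3736 with vehicle (log2 change -0.07 ± 0.14, adjusted p = 0.87), and EWSR1 gave 5576, 4730 and 4517 against 4315, 4947 and 5117 (log2 change 0.03 ± 0.08). NKX2-2, a homeobox factor of Ewing sarcoma, was slightly lower (4717, 4580 and 4287 against 4882, 5445 and 5885, log2 change -0.25 ± 0.07, adjusted p = 0.033) and lost the call with 6 of the 9 arrays left out one at a time, with an adjusted p up to 0.16. Of 24 genes described elsewhere as activated by EWS/FLI, 1 was higher and 3 lower. EZH2, the histone methyltransferase, was the gene that rose (4755, 4332 and 4501 against 3079, 3398 and 3534, log2 change 0.44 ± 0.09, adjusted p = 0.0030). Of 19 described as repressed by the fusion, none was higher and 6 were lower, with a median log2 change of -0.39. They included THBS1 and LOX, given above, DKK1, a Wnt antagonist (72.0, 137 and 148 against 217, 260 and 319, log2 change -1.20 ± 0.22, adjusted p = 0.0013), and SPRY1, an inhibitor of receptor kinase signals (34.4, 36.4 and 56.5 against 97.3, 111 and 160, log2 change -1.52 ± 0.31, adjusted p = 0.0030). In the study's own probe set lists, 5 of 66 that rise when EWS/FLI is knocked down were higher and 11 lower here, and of 77 that fall 9 were higher and 8 lower. The second split turned with the setting, with 3 higher and 12 lower against row A vehicle alone, 13 and 6 with the arrays shifted to a common median, and 14 and 4 with the ACTB ratio as a term.

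Of the 14 genes of the study's screening signature, CXCL8 passed, and it was lower. PPP1R1A gave 664, 665 and 615 against 279, 606 and 916, FCGRT gave 1087, 1290 and 1076 against 527, 846 and 1161, and FHL2 gave 217, 296 and 394 against 331, 432 and 453, all overlapping, with adjusted p-values of 0.67, 0.11 and 0.10. Against the vehicle arrays of row A alone PPP1R1A was called lower (log2 change -0.49, adjusted p = 0.023), the opposite sign of its change of 0.32 against all 6. IGFBP7 lay above the vehicle range (33.2, 20.9 and 40.9 against 3.10, 15.4 and 19.2) but did not pass (adjusted p = 0.10). Of 27 neuronal genes 3 were higher and 3 lower. GAP43 (chr3:115623510-115721483), a growth cone protein, gave the smallest adjusted p of this list, with 585, 610 and 778 against 1244, 1420 and 1609. Puromycin values were less spread than the gap to vehicle (2.18-fold lower, log2 change -1.13 ± 0.11, adjusted p = 3.4e-06). TUBB3, the neuronal tubulin, was lower by less (log2 change -0.39 ± 0.08, adjusted p = 0.0044). VIM, the intermediate filament of mesenchymal cells, was chosen after its values were seen and had 9258, 11640 and 10630 against 12900, 15260 and 16770 (log2 change -0.52 ± 0.09, adjusted p = 0.00083).

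No marker of another cell type was called higher. None of 25 blood markers and none of 18 epithelial markers passed, and 24 and 14 of them had mean signals under 100. Their summed signals were 3569 to 3774 and 13130 to 13890 with puromycin, against 3746 to 4870 and 14920 to 16650 with vehicle, made up mostly of ITGB2 and of KRT18 with KRT8. Of 18 fibroblast and endothelial markers 4 were lower and 13 had a mean under 100, and the sum, mainly COL1A2, THY1 and DCN, was 9848 to 11590 against 12720 to 13810. In these bulk samples fewer cells of a kind and less RNA per cell cannot be told apart. ABCC10, an efflux pump, was the 1 of 16 drug transporter and puromycin-sensitive aminopeptidase genes called (log2 change 0.50 ± 0.15, adjusted p = 0.041), and it lost the call in 7 of the 9 cases (adjusted p up to 0.13). ABCB1, the pump that exports many drugs, was near the floor (51.9, 22.4 and 27.6 against 4.37, 13.3 and 27.3), and NPEPPS, the aminopeptidase named for its sensitivity to puromycin, gave 623, 1388 and 1188 against 1186, 1243 and 1360 (log2 change -0.33 ± 0.19, adjusted p = 0.35).

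Puromycin at 0.18 µM was then set directly against 0.09 µM at the same time and in the same plate row. The log2 ACTB ratio was 2.06, 1.39 and 1.93 at 0.09 µM, beside 3.17, 1.05 and 1.17 at 0.18 µM. Median signals of the arrays were 92.47, 101.5 and 92.27 at 0.09 µM, and 102.8, 116 and 114.3 at 0.18 µM. The part of these differences in the comparison was not tested. No probe set of 22215 (0%) passed in limma in either direction, while 1516 (6.82%) had an unadjusted p under 0.05, and the smallest adjusted p was 0.30. With quantile normalization 2 were higher and 4 lower. This does not show that the doses acted alike. DDIT3 gave 1218, 1119 and 1065 at 0.18 µM and 664, 691 and 641 at 0.09 µM, a separation with a log2 difference of 0.77 ± 0.15 (SE, adjusted p = 0.30). AMPD1 gave 566, 542 and 574 at 0.18 µM and 312, 269 and 238 at 0.09 µM (log2 difference 1.05 ± 0.23), STC2 gave 772, 901 and 794 and 527, 528 and 485 at those doses (0.68 ± 0.15), and P4HA2 gave 401, 470 and 482 and 295, 235 and 251 (0.79 ± 0.23). These genes were all higher at the higher dose, without overlap. They had been picked as rises at 0.18 µM against vehicle, which favours this order. All 15 of the largest rises and 14 of the 15 largest falls had the same sign between the doses. The median log2 difference of all probe sets was 0.0784, and the share of them without overlap between the doses is not given here. The cytoskeletal genes did not separate the doses: the groups of ZYX overlapped (log2 difference 0.11 ± 0.21), and TAGLN gave 193, 484 and 443 at 0.18 µM and 327, 544 and 354 at 0.09 µM (-0.20 ± 0.34). CDKN1A had a log2 difference of 0.06 ± 0.19.

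Each dose was also compared with the same vehicle arrays, which the comparisons therefore share. At 0.09 µM, 595 probe sets were higher (2.68%) and 1793 lower (8.07%), and the median log2 change of all probe sets was -0.0992. Of the 15 largest rises at 0.18 µM, 6 were called higher at 0.09 µM, and of the 15 largest falls 12 were called lower. Log2 changes against vehicle at 0.18 µM and at 0.09 µM were -3.86 and -3.54 for THBS1, -2.78 and -1.70 for ANKRD1, -1.75 and -1.86 for ZYX, -1.17 and -1.22 for CDKN1A, 1.75 and 0.71 for AMPD1, and 1.11 and 0.61 for HSPA1B, all called at both doses. DDIT3 had 1.00 and 0.23, STC2 0.93 and 0.26 and TRIB3 0.70 and 0.25, and none of these 3 was called at 0.09 µM (adjusted p = 0.30, 0.23 and 0.29). Among the SRF targets 15 of 24 were lower at each dose. None of the 35 ATF4 genes was called higher at 0.09 µM, against 6 at 0.18 µM, and the difference between the doses passed for none of them.

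Doxorubicin, an anthracycline that intercalates in DNA and traps topoisomerase II, was profiled at 119.76 nM in the same plate row, also at 2 times EC50. The log2 ACTB ratio of the doxorubicin arrays was 1.26, 1.94 and 2.13, above the 0.51 to 1.10 of vehicle, and its part here was not tested. Puromycin 0.18 µM against doxorubicin gave 891 probe sets higher (4.01%) and 1094 lower (4.92%, 8.94% in all) in limma, without use of the vehicle arrays. The first count depended on single arrays: it was 1663 without puromycin replicate 1 and 466 to 582 without puromycin replicate 2 or 3 or doxorubicin replicate 2 or 3. Many mitosis genes and genes of the endoplasmic reticulum and the inducible HSP70 genes were higher with puromycin, and many matrix genes and CDKN1A were lower. HSPA1A gave 6977, 6521 and 5941 with puromycin and 799, 808 and 504 with doxorubicin, against 2243 to 3199 with vehicle. The vehicle arrays lay between the compounds, which differed by a log2 of 3.23 ± 0.19 (adjusted p = 2.2e-10). HSPA1B gave 2350, 2223 and 2633 with puromycin and 490, 393 and 396 with doxorubicin (log2 difference 2.50 ± 0.13, adjusted p = 7.6e-11), and DNAJB1 gave 2971, 4148 and 3951 and 1453, 808 and 728 (1.94 ± 0.18, adjusted p = 2.4e-07). Of the 34 chaperone genes, 11 were higher and 1 lower, and of 29 genes of the endoplasmic reticulum 12 were higher and none lower. In the mitosis list 27 of 41 were higher with puromycin and none lower, at a median log2 difference of 0.58. Against vehicle, doxorubicin itself had 25 of the 41 lower and 1 higher (7.37% and 7.18% of all probe sets).

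The opposite order was seen for CDKN1A, with 235, 313 and 226 with puromycin and 1253, 1141 and 1288 with doxorubicin, on either side of the vehicle range of 443 to 742 (log2 difference -2.26 ± 0.19, adjusted p = 6.7e-08). COL1A1 gave 734, 841 and 447 with puromycin and 3635, 3037 and 3336 with doxorubicin, again with vehicle in between at 1598 to 1977 (log2 difference -2.35 ± 0.17, adjusted p = 6.6e-09). ADM, which encodes the vasodilator peptide adrenomedullin, gave 164, 154 and 208 with puromycin and 2008, 1827 and 1565 with doxorubicin (-3.37 ± 0.20, adjusted p = 2.2e-10), against 327 to 530 with vehicle. In the matrix list 22 of 50 were lower with puromycin than with doxorubicin and 2 higher, and in the immediate early list 14 of 35 were lower and 2 higher. THBS1 had a log2 difference of -3.82 ± 0.58, ANKRD1 of -3.32 ± 0.34, and ZYX of -1.19 ± 0.21 (adjusted p = 0.00015, 7.5e-07 and 0.00074), whereas for TAGLN, lower than vehicle with both compounds, it was -0.72 ± 0.34 (adjusted p = 0.23). CTNND2, encoding δ-catenin, gave 538, 647 and 634 with puromycin, near the vehicle range of 463 to 562, and 100, 79.4 and 59.7 with doxorubicin (2.95 ± 0.17, adjusted p = 2.2e-10). Further large differences were another probe set of DHRS2, SAYSD1, EPHB1 and CER1, higher with puromycin, and S100A10, TYRP1, DNAJC22 and PHLDA1, lower with puromycin, at log2 differences of 2.98 to 4.46 and -3.35 to -3.95. EPHB1 and CER1 lay near or under the vehicle level with puromycin and close to the floor with doxorubicin. DDIT3 rose with both compounds and was lower with puromycin (-0.72 ± 0.15, adjusted p = 0.0028). Because dose was matched to the EC50 and not to amount, the doses of the compounds differ. The genes called in this comparison and named for it kept the call when any of the 6 arrays was left out.

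**Figure D5:**
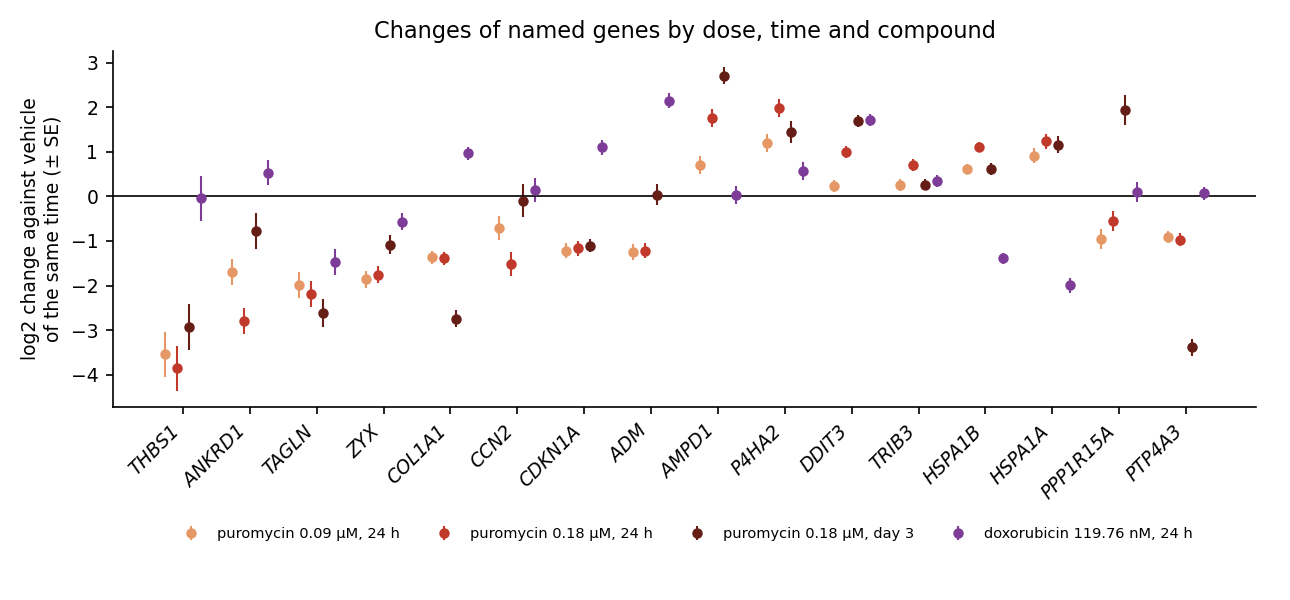
Log2 change against vehicle of the same time (± SE) of 16 genes with puromycin 0.09 µM at 24 h, puromycin 0.18 µM at 24 h, puromycin 0.18 µM at day 3 and doxorubicin 119.76 nM at 24 h. The 24 h changes share the 6 vehicle arrays. COL1A1 and PTP4A3 are lower at day 3 than at 24 h, and HSPA1A, HSPA1B and CDKN1A lie on opposite sides of 0 with puromycin and doxorubicin.

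Puromycin at 0.18 µM was also profiled after 3 days, with vehicle arrays of that day. At day 3, 1319 probe sets were higher (5.94%) and 1973 lower (8.88%) than with vehicle, and of the 15 largest rises and 15 largest falls of 24 h, 9 and 9 were called in the same direction. The difference between the change at day 3 and the change at 24 h passed for 195 probe sets that were higher at day 3 (0.878%) and 398 that were lower (1.79%), 2.67% in all. These counts depended on single arrays, with 79 to 129 higher and 190 to 556 lower when puromycin replicate 1 or 3 of 24 h or replicate 2 or 3 of day 3 was left out, and 380 higher without replicate 2 of 24 h. Collagen genes fell further. COL5A1 gave 606, 693 and 485 at 24 h and 178, 197 and 150 at day 3 with puromycin, whereas with vehicle its median was 903 at 24 h and 812 at day 3, so that the change moved by -1.61 ± 0.19 on the log2 scale (adjusted p = 9.3e-07). COL1A2 moved by -1.45 ± 0.17 (adjusted p = 4.5e-07), TNC by -1.41 ± 0.23 (adjusted p = 0.00021) and COL1A1 by -1.36 ± 0.27 (adjusted p = 0.0017). Of the matrix list, 9 of 50 moved down and none up. PTP4A3, a phosphatase, gave 366, 242 and 262 at 24 h and 79.2, 40.1 and 61.1 at day 3 with puromycin, against vehicle medians of 551 and 596 (-2.41 ± 0.28, adjusted p = 4.5e-07).

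Some genes that did not rise at 24 h were high at day 3. PPP1R15A, the phosphatase subunit that reverses the phosphorylation of eIF2α, gave 274, 326 and 347 at 24 h and 1242, 1309 and 1350 at day 3 with puromycin, against vehicle medians of 419 and 270 (change moved by 2.50 ± 0.46, adjusted p = 0.00095). One of the 5 vehicle arrays of day 3 read 1048. FOS moved by 1.97 ± 0.36 (adjusted p = 0.00067), the brighter JUN probe set by 1.88 ± 0.34 (adjusted p = 0.00063) and GADD45A, a growth arrest gene, by 0.72 ± 0.16 (adjusted p = 0.0071). AMPD1 and DDIT3 rose further, by 0.96 ± 0.27 (adjusted p = 0.039) and 0.69 ± 0.20 (adjusted p = 0.041). ANKRD1 gave 22.5, 3.46 and 28.5 at day 3 with puromycin, but vehicle had itself dropped to between 1.45 and 87.1, with a median of 29.1, so the change at day 3 was -0.78 ± 0.41 (adjusted p = 0.25) and the difference 2.01 ± 0.57 (adjusted p = 0.043). Further genes past the test were BCL6, P2RY11, HNRNPA0, PTOV1-AS2 and SEMG1, whose change was higher at day 3, and PLA2G3, SELENOP, SLC2A6, SLC22A4 and IFIT1, whose change was lower, at moves of 2.46 to 2.74 and -2.39 to -2.99. IFIT1, an interferon-induced RNA-binding protein, gave 76.8, 95.9 and 145 at 24 h and 46.6, 10.3 and 39.0 at day 3 with puromycin, against vehicle medians of 101 and 123. On leaving out each of the 6 puromycin arrays in turn, AMPD1, DDIT3 and PTOV1-AS2 lost the call between the times in 5 cases, ANKRD1 in 4, HNRNPA0 in 3, BCL6 in 2 and SLC22A4 in 1. Their puromycin arrays were scattered in some cases, as for BCL6 with 5.14, 169 and 61.3 and HNRNPA0 with 315, 673.2 and 105 at 24 h. The HSP70 genes, ZYX and CDKN1A did not pass the test between the times, with differences of -0.08 ± 0.27 for HSPA1A, 0.67 ± 0.30 for ZYX and 0.06 ± 0.20 for CDKN1A.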

How the data were processed

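RNA of A673 cells was hybridised to high-throughput Affymetrix arrays of human genes and probe set intensities were computed by the authors with MAS5, whose version is not given in the sources used here. The deposited intensities of 68 arrays were used, with 22930 rows, of which 715 control probe sets were left out. Values under 10, the minimum of the authors' methods, were set to 10 and log2 was taken, with no further scaling and no upper limit. The array annotation gave 19230 of 22215 probe sets 1 gene symbol, 125 several and 2860 none (11882 genes), and each gene of a list was represented by its brightest probe set over the 24 h arrays.

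Group means were fitted with limma 3.58.1 in R 4.3.3 (lmFit, eBayes with an intensity trend) over all 24 arrays of 24 h (7 groups), and over 47 arrays for the difference between times (14 groups). All 22215 probe sets entered the Benjamini-Hochberg adjustment, with a threshold of 0.05. The fits were tested on simulated data. The members and gene lists were chosen with earlier results of these data known. Named were the 15 largest rises and falls without overlap and above the 40th percentile of level, up to 4 genes a list and direction (the 2 brightest where none passed), the 6 largest differences each way in the other contrasts, and a set of fixed genes. Some genes outside this rule are marked in the text as chosen after their values were seen. Others outside it carry no such mark, among them ASNS, CHAC1, ATF3, HSPA8, DNAJB1, HSPA5, HSP90B1, FN1, MYC, MDM2, FOS and GADD45A. Alternatives were quantile and median scaling, floors of 32 and 1, a cap of 16000, brighter probe sets only, no intensity trend, other sets of arrays, the plate part or replicate number as a block and leaving out each array. A fit without an ARA-C array whose lowest signals were raised and a fit with the ACTB ratio as a term were chosen after seeing the data.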

Additional observations from a re-analysis of the deposited data

Results flagged for a closer look

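Of 159 genes examined, 6 had 1 of the 6 vehicle arrays of 24 h far from the other 5, where chance gives about 1 in 20. PRRG4 read 30.97 on vehicle replicate 6, against 4.702 to 14.83 on the others, SAYSD1 read 20.86 on that array (others 63.1 to 109.9), and FHL2 read 330.8 (others 408.0 to 452.9). On vehicle replicate 2, COL1A1 read 1977 (others 1598 to 1690) and TUBB3 read 10550 (others 11680 to 12260). The brighter JUN probe set read 905.1 on vehicle replicate 1 (others 635.7 to 699.9).

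For 31 of these genes the change at day 3 differed from the change at 24 h by the test of the difference itself (limma, adjusted over all probe sets). On the log2 scale the change was higher at day 3 by 0.9564 for AMPD1, 2.0057 for ANKRD1, 1.2589 for ADM, 2.7358 for BCL6, 2.6934 for P2RY11, 2.6089 for HNRNPA0, 2.5221 for PTOV1-AS2, 2.5018 for PPP1R15A, 2.4608 for SEMG1, 0.695 for DDIT3, 0.7556 for SMOX, 1.9721 for FOS, 1.8824 for JUN and 0.7188 for GADD45A. It was lower at day 3, with differences of -2.9852 for PLA2G3, -2.8573 for SELENOP, -2.8279 for SLC2A6, -2.4236 for SLC22A4, -2.4143 for PTP4A3, -2.3941 for IFIT1, -0.9961 for WFS1, -1.2794 for SREBF1, -0.5186 for P4HA1, -1.3572 for COL1A1, -1.249 for LOXL2, -0.8756 for BNIP3, -1.4104 for TNC, -0.4721 for ITGB2, -1.4504 for COL1A2, -0.8576 for GAP43 and -1.6118 for COL5A1. For COL1A1 and JUN this difference comes with a vehicle array of 24 h that stood apart. With each of the 6 puromycin arrays left out in turn, SMOX, LOXL2 and ITGB2 lost this call in 4 cases, P4HA1 in 3 and ADM, BNIP3 and GAP43 in 2, beside the losses given above for other genes.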

How the results depend on the processing

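Against vehicle, the 809 higher probe sets became 1381 with quantile normalization, 195 in a fit of all 68 arrays, 405 with the plate part as a block or with vehicle of the same plate part, and 1961 with the ACTB ratio as a term. The 904 lower became 601 in a fit of only the arrays compared and 284 with all 68 arrays. Leaving out 1 array gave 424 to 956 higher and 548 to 1083 lower. Without the ARA-C array whose lowest signals were raised, which entered only the estimate of spread, 961 were higher and 940 lower. No call changed direction in any of these fits, and of the 1713 calls 468 (27.3%) were shared with the fit of all 68 arrays and 1024 (59.8%) with that on the same plate part. The doses differed at 2 higher and 4 lower probe sets with quantile normalization and at 0 with each array left out. Against doxorubicin, the 891 higher became 1353 with quantile normalization and 235 with all 68 arrays, and 466 to 1663 with an array left out, while the 1094 lower became 351 with all 68 arrays and 779 to 1091 with an array left out. Between the times, the 195 higher became 380 with quantile normalization and 6 with all 68 arrays, and 79 to 380 with an array left out, and the 398 lower became 19 with all 68 arrays and 190 to 556 with an array left out. The 157 calls over the gene lists became 103 (only the arrays compared), 42 (all 68 arrays) and 282 (ACTB term), and 113 to 152 with an array left out. ATF4 genes higher became 3 with only the arrays compared, 1 with all 68, 14 with either plate setting and 11 with the ACTB term, and 5 to 7 with an array left out. Chaperones higher became 3 with only the arrays compared or either plate setting and 2 with all 68, and 2 to 6 with an array left out. Matrix genes lower became 8 and 5 with only the arrays compared and all 68, and 13 to 19 with an array left out, and SRF targets lower became 7 with all 68 and 12 to 14 with an array left out. The 30 largest changes became 18 when dim probe sets were dropped and 23 to 28 with an array left out. The ACTB ratio difference of 0.976 was 0.29 and the GAPDH difference of 0.333 was 0.053 without puromycin replicate 1. PPP1R1A changed sign to -0.4908 with the plate part as a block, with vehicle of the same plate part and with the replicate block, and VCP (log2 change -0.05) changed to 0.33 with the ACTB term. The cause of these moves was not tested.

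Same-numbered puromycin and vehicle arrays did not deviate together (correlations of -0.022, -0.046 and 0.014), and not every puromycin array correlated best with its own number, so the numbers do not pair the samples. With the replicate block there were 275 higher and 595 lower, 93 calls over the lists, 15 of the 30 largest changes and 2 chaperones higher.

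A group of 3 arrays, with replicate 1 apart in its 3′ to 5′ ratio and no vehicle in the plate row of puromycin, limits what the comparison can resolve. About 20% of probe sets per array lay under the floor.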
